A study of Homo sapiens with 8 samples.

Results

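Glycolysis splits glucose to pyruvate in a fixed order of enzymes, and lactate dehydrogenase then turns pyruvate into lactate. Several of its steps have isoenzymes made from separate genes, so a cell can carry out a step with different mixtures of proteins. Many of these genes are known targets of the hypoxia-inducible factors and of MYC, and leukaemic T cells are known for a high use of glucose. Described here are the 10 enzymes HK2, GPI, PFKP, ALDOA, ALDOC, TPI1, PGK1, PGAM1, ENO1 and LDHA, which run from hexokinase to lactate. They were taken by gene symbol from the platform annotation. All 10 were measured, each by 1 probe set, among 17687 named genes. In the order above the probe sets are TC0200008099.hg.1, TC1900011707.hg.1, TC1000012423.hg.1, TC1600007440.hg.1, TC1700010200.hg.1, TC1200006649.hg.1, TC0X00007709.hg.1, TC1000008574.hg.1, TC0100012778.hg.1 and TC1100007003.hg.1.

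The cells were CCRF-CEM, an established line from a human T-cell acute lymphoblastic leukaemia, grown in RPMI with serum. The untreated group (4 arrays) was held for 1 h in a type I collagen gel of 1.7 mg/mL made from bovine collagen. The OICR-9429 group (4 arrays) had 1 h with 1 µM OICR-9429 first and then went through the gel in the same way. OICR-9429 is a small molecule that blocks the pocket by which WDR5 binds MLL-family histone methyltransferases. All 8 samples come from this 1 line and all were in the gel, so no array shows cells outside it, and the labels name no solvent control. The labels call the samples biological replicates 1 to 4 in each group without saying whether they were separate cultures, so a p-value here measures only how these samples spread, which may be technical.

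Expression is given as the log2 signal of a probe set, and 1 unit is a doubling of signal. A probe set's brightness depends on its probes as well as on its transcript, so values of different genes were not ranked against each other. Array medians ran from 6.38 to 6.46 over 21448 probe sets. Of 16 T-lineage markers 13 lay above the array median, with CD3E between 11.61 and 11.97 and CD7 between 8.42 and 9.60. CD8A, PTCRA and RAG2 lay below it, with means of 6.0, 6.08 and 6.38 over the 8 arrays. Of 4 B-cell markers 2 lay above the array median: CD79A read 8.90 to 9.92 and CD79B 7.65 to 8.39, while PAX5 read 6.04 to 6.82 and MS4A1 3.28 to 4.15. Of 7 myeloid markers 1 lay above the median, CSF1R at 6.19 to 6.82, and LYZ read 3.44 to 4.12. Of 4 erythroid markers 2 lay above it, HBA1 and EPOR, and of 7 fibroblast and epithelial markers 3, COL1A1, COL1A2 and KRT8. Lying above the median was thus not particular to the T lineage. In bulk RNA, fewer cells of a type and less RNA per cell cannot be told apart.

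The promoters of 4 of the enzymes are shown because their genes stand at the extremes described further on: ALDOC and GPI differed most between replicate numbers, LDHA differed least, and PGAM1 is the member without the motif. They were chosen after the values were seen. Each run is the 250 bases before the RefSeq transcription start on build GRCh38.p14, 5′ to 3′ on the gene's strand. Capitals mark ACGTG or GCGTG read on either strand, the core letters of the hypoxia response element. CACGTG, the E-box that MYC can bind, holds ACGTG and is marked with it. ALDOC lies at chr17:28576896-28577145 on the minus strand, GPI at chr19:34364742-34364991, LDHA at chr11:18394313-18394562 and PGAM1 at chr10:97427568-97427817, the last 3 on the plus strand.
ALDOC: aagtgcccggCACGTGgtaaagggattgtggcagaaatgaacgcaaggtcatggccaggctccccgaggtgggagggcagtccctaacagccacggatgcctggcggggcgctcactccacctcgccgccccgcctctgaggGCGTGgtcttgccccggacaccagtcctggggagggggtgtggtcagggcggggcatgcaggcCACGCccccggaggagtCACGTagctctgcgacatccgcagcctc
GPI: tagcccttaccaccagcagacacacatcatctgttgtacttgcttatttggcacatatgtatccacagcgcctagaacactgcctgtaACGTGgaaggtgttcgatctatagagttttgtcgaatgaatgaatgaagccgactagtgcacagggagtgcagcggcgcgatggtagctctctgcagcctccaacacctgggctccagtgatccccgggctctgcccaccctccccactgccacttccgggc
LDHA: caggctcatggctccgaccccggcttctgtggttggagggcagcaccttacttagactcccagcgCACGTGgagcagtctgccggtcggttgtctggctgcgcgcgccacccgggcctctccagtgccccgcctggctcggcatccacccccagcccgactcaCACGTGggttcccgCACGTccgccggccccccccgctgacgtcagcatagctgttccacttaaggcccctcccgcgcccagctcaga
PGAM1: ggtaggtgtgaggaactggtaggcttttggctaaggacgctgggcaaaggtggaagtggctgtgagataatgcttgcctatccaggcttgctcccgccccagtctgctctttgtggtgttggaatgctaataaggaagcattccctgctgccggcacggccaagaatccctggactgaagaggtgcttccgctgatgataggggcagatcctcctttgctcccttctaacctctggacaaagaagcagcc

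Counted on both strands, where each CACGTG gives 1 match per strand, the ALDOC and LDHA windows each held 5 matches, GPI held 1 and PGAM1 held 0. ALDOC held CACGTG at 1 place and LDHA at 2. A second LDHA window in the table, not shown, held 1 match. The match nearest the start lay 23 bases from it in ALDOC, 68 in LDHA and 157 in GPI. Of the 18 promoter windows that the RefSeq table gives for the 10 enzymes, 14 held the core, and 9 of the 10 enzymes had at least 1 such window. In the table as a whole 43.2% of 35116 windows held it. That share is per window. The share of all genes with at least 1 such window was not computed, so the count of 9 enzymes has no background here. A gene with several windows meets it more easily. CACGTG stood in 4 of the 18 windows, against 6.35% of all windows. Windows of 1 gene can overlap, and a match describes letters and not a bound site.

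No difference between OICR-9429 and untreated arrays was detected for any of the 10 enzymes. With limma, 0 of 10 passed an adjusted p of 0.05, where the background over all probe sets was 0% (0 of 21448). The differences ran from -0.08 for ALDOC to 0.14 for HK2, with 5 above and 5 below 0 and a median of -0.0050, beside 0.0050 for all probe sets. At an unadjusted p under 0.05 there were 0 enzymes and 105 probe sets. Same-numbered untreated and OICR-9429 arrays deviated together, so a fit with the replicate number as a block was also made. That replicate block called 0 enzymes and again 0% of all probe sets, with 0 enzymes and 1191 probe sets at an unadjusted p under 0.05.

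Hexokinase opens the pathway by adding a phosphate to glucose, and HK2 is its inducible form, which binds mitochondria. HK2 read 7.17, 7.43, 7.60 and 7.75 in untreated replicates 1 to 4 and 6.91, 7.65, 7.46 and 8.48 in those given OICR-9429. The groups overlapped, and the highest and lowest arrays both belonged to the treated group. The group means were 7.49 ± 0.25 and 7.62 ± 0.65 (SD, n = 4 each). HK2 also differed most between the arrays of 1 number: OICR-9429 minus untreated was -0.26, 0.22, -0.14 and 0.73 for numbers 1 to 4. Its treatment difference of 0.14 ± 0.31 (SE) had a 95% interval of -0.55 to 0.82, and -0.24 to 0.51 with the replicate block.

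GPI converts glucose 6-phosphate to fructose 6-phosphate. It read 10.32, 10.65, 11.67 and 12.55 untreated and 10.39, 10.51, 11.44 and 12.59 with OICR-9429. Both groups covered nearly the whole range, from low values at numbers 1 and 2 to high ones at number 4. The group means were 11.30 ± 1.01 and 11.23 ± 1.02 (SD, n = 4 each), and the difference was -0.06 ± 0.59 (SE). Its 95% interval of -1.38 to 1.25 became -0.30 to 0.17 with the replicate block.

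PFKP, the platelet type of phosphofructokinase, commits the sugar to glycolysis. It read 11.06, 10.79, 11.21 and 11.64 untreated and 11.09, 10.66, 11.10 and 11.80 with OICR-9429. Number 2 was the lowest and number 4 the highest in both groups. The difference was -0.01 ± 0.27 (SE).

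Aldolase cuts the sugar into 2 triose phosphates, and triose phosphate isomerase interconverts them. ALDOA, the form common in muscle and blood cells, read 12.29, 12.24, 12.72 and 12.92 untreated and 12.25, 12.16, 12.56 and 12.97 with OICR-9429, a difference of -0.06 ± 0.23 (SE). ALDOC, the form best known from brain, read 7.58, 9.34, 9.82 and 10.93 untreated and 7.31, 9.28, 9.83 and 10.94 with OICR-9429. ALDOC had the widest range of the 10, and its groups overlapped almost entirely, at 9.42 ± 1.39 and 9.34 ± 1.52 (SD, n = 4 each). The difference of -0.08 ± 0.83 (SE) had a 95% interval of -1.95 to 1.79, and -0.31 to 0.15 with the replicate block. TPI1 read 11.17, 11.22, 11.48 and 11.99 untreated and 11.27, 11.22, 11.53 and 11.99 with OICR-9429. Its means were 11.46 ± 0.38 and 11.50 ± 0.35 (SD, n = 4 each), and the difference of 0.04 ± 0.24 (SE) lay inside the SDs.

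PGK1 and PGAM1 act in the stretch that returns ATP, PGK1 by moving a phosphate to ADP and PGAM1 by shifting it along the triose. PGK1 read 10.55, 11.34, 11.44 and 12.17 untreated and 10.64, 11.08, 11.43 and 12.09 with OICR-9429. PGAM1 read 11.27, 11.08, 11.67 and 11.94 untreated and 11.23, 11.18, 11.58 and 11.98 with OICR-9429. For both, each treated array lay close to the untreated array of its number. The differences were -0.06 ± 0.38 (SE) for PGK1 and 0.0025 ± 0.25 (SE) for PGAM1.

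ENO1 makes phosphoenolpyruvate, and LDHA makes lactate while restoring NAD+. ENO1 read 12.44, 12.82, 12.96 and 13.11 untreated and 12.53, 12.82, 12.92 and 13.15 with OICR-9429. LDHA read 12.15, 12.57, 12.56 and 12.68 untreated and 12.20, 12.54, 12.56 and 12.70 with OICR-9429. Number 1 was the lowest in both genes and both groups. ENO1 rose with each number in both groups, while for LDHA the other numbers lay close together. The values of both genes are near the top of the scale, whose highest value is 13.39. Their differences were 0.02 ± 0.20 (SE) and 0.01 ± 0.18 (SE).

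**Figure D1:**
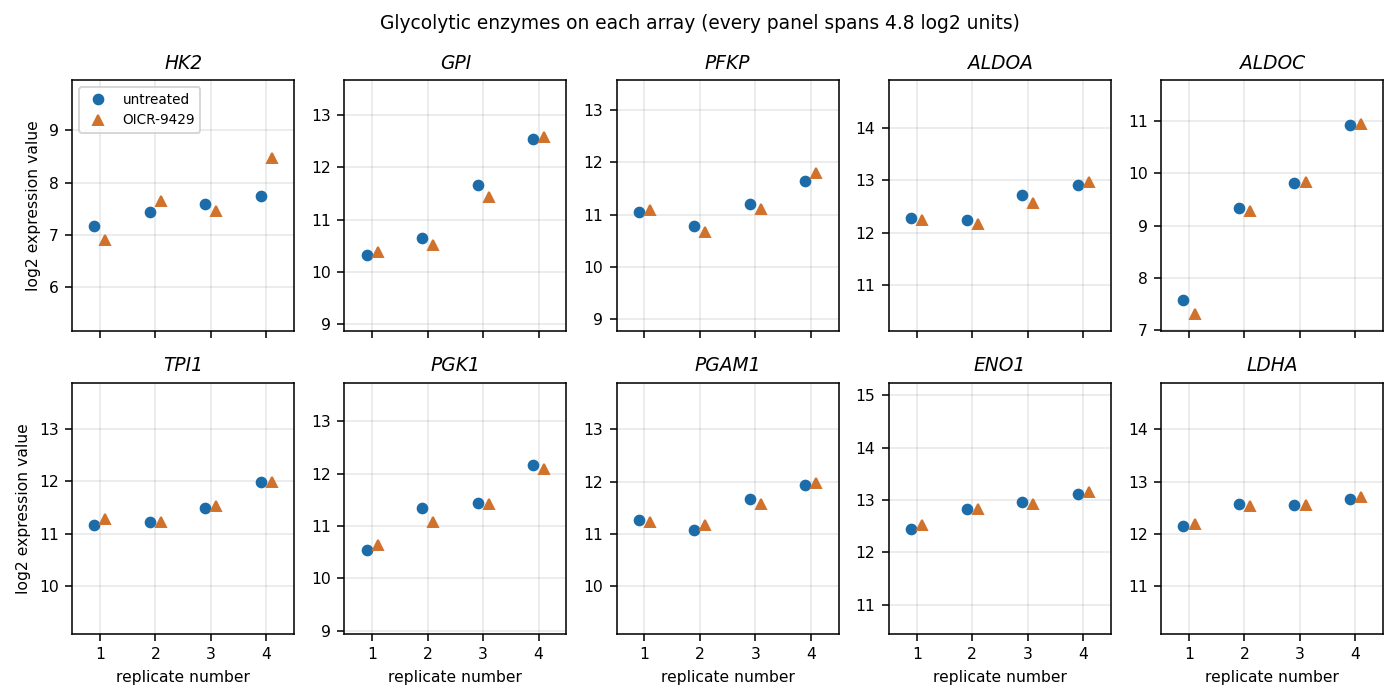
Log2 expression value (vertical axis, every panel 4.8 units high) of each enzyme on each array by replicate number (horizontal axis), untreated as circles and OICR-9429 as triangles. The 2 arrays of a number lie close together, number 4 is the highest in all 10 panels, and HK2 shows the largest gap within a number, 0.73 at number 4.

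Within numbers the 40 differences between treated and untreated arrays fell evenly about 0, with 18 above, 18 below and 4 at 0, and 39 of them were at most 0.3 in size. No enzyme went the same way in all 4 numbers (0 of 10). The median over the enzymes was 0.04, -0.04, -0.06 and 0.04 for numbers 1 to 4, beside -0.02, 0.01, 0.00 and 0.01 for all probe sets. At number 4, 8 enzymes were above 0 and 1 below, and at number 3, 2 were above and 7 below. With the replicate block the standard errors shrank from 0.18 to 0.83 down to 0.09 to 0.16. The 95% interval then lay within 1.5-fold for 10 of 10 enzymes, against 5 of 10 without the block.

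**Figure D2:**
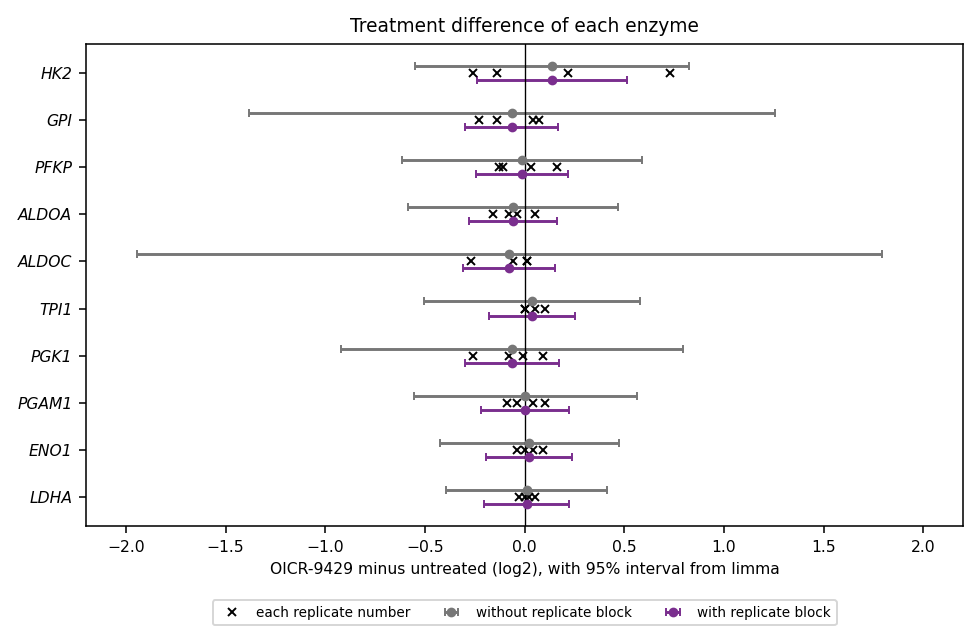
OICR-9429 minus untreated (log2, horizontal axis) for each enzyme, with limma's 95% interval without the replicate block (grey) and with it (purple), and the difference at each replicate number as crosses. Every interval covers 0, and the intervals of ALDOC and GPI narrow most when the number enters the fit.

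Replicate numbers, in contrast, separated the enzymes. The range of an enzyme's 4 number means was 1.47 (HK2) to 12.9 (ALDOC) times its largest gap between treated and untreated arrays of a number. From the lowest to the highest number mean ALDOC spanned 11.2-fold, GPI 4.64-fold, PGK1 2.90-fold, HK2 2.11-fold and PFKP 1.99-fold. PGAM1, TPI1, ALDOA, ENO1 and LDHA spanned 1.78-, 1.71-, 1.68-, 1.56- and 1.43-fold. The median span was 0.91 log2 units, beside 0.63 over all probe sets and 0.79 over probe sets with a mean of at least 9. In a limma model with number and treatment, 10 of 10 enzymes passed the test of any difference between numbers, against a background of 50.3% of all probe sets (10791 of 21448). Each number has 2 arrays, so the error of these tests comes from the treated-minus-untreated gaps of the numbers and not from separate cultures. That number 1 is low and number 4 high for glycolysis genes was known when the enzymes were chosen.

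Number 4 was the highest for all 10 enzymes, in the untreated and in the OICR-9429 arrays alike. Among all probe sets number 4 was the highest in 43.5%, and in 26.5% of the 3370 probe sets with a mean of at least 9, a limit set after the values were seen. Against number 1, 10 of 10 enzymes were higher at number 4 with limma, where the background called higher was 21.3%. ALDOC was higher by 3.49 ± 0.14 (SE) on the log2 scale, GPI by 2.22 ± 0.14 and PGK1 by 1.54 ± 0.14. HK2 was higher by 1.08 ± 0.23 (SE), TPI1 by 0.77 ± 0.13, PGAM1 by 0.71 ± 0.14 and ALDOA by 0.68 ± 0.14. PFKP and ENO1 were each higher by 0.65, and LDHA by 0.52 ± 0.13 (SE). The largest adjusted p among the 10 was 0.0139, for LDHA (limma). The median difference was 0.74, beside 0.08 for all probe sets. For HK2 the size was 0.58 in untreated and 1.57 in OICR-9429 arrays. The part of the top of the scale in the small spans of ENO1 and LDHA was not tested.

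Marker lists were compared in the same way, against the background of 21.3% higher and 23.2% lower. Of 7 myeloid markers 4 were higher at number 4 than at number 1 and 0 lower, and the list's mean over an array ran from 4.74 to 5.25. Of 16 T-lineage markers 4 were higher and 4 lower, near the background, with array means from 8.43 to 8.90. CD4, one of the T-lineage markers, read 8.35, 8.57, 9.69 and 10.53 untreated and 8.44, 8.35, 9.33 and 10.50 treated. It was highest at number 4 like the enzymes, but its difference of 2.12 was the highest of that list. RAG1 went the other way, with the lowest difference of the list, at -1.065. The B-cell list had 1 higher and 1 lower of 4 (array means 6.68 to 7.01), the erythroid list 2 and 1 of 4 (5.91 to 6.55) and the fibroblast and epithelial list 3 and 1 of 7 (5.85 to 6.13). Their part in the differences between numbers was not tested.

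The lowest number was not the same for every enzyme, though for 8 of 10 enzymes numbers 1 and 2 did not differ past the threshold (limma). Number 1 was the lowest for HK2, GPI, ALDOC, PGK1, ENO1 and LDHA (6 enzymes), number 2 was the lowest for PFKP, ALDOA and PGAM1 (3 enzymes), and TPI1 had equal means of 11.22 at both. The order of the 4 numbers was identical in untreated and treated arrays for 7 enzymes. The exceptions were HK2, TPI1 and LDHA, where numbers next to each other changed places.

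Number 2 was above number 1 past the threshold for ALDOC and PGK1 (2 of 10, limma), against a background of 6.51%. ALDOC stood 1.86 ± 0.14 (SE) higher at number 2 and PGK1 0.61 ± 0.14, while PFKP differed by -0.35 ± 0.14 (SE) and did not pass (adjusted p = 0.148). With a variance trend and robust fit, and with dim probe sets left out, ENO1 and LDHA also passed as higher and PFKP as lower, which brings the count to 5. Probe sets called higher rose too, from 1397 to 2206 with the trend and robust fit. They were 1922, of fewer tested, with dim probe sets left out. Number 3 was above number 1 for ALDOC, PGK1 and GPI (3 of 10, background 1.16%) and above number 2 for GPI (1 of 10, background 2.42%). With the trend and robust fit those counts were 8 and 6, and the second was 5 with dim probe sets left out. The background rose as well: with the trend and robust fit, probe sets called higher went from 249 to 674 and from 518 to 1495. For number 3 over number 2 they were 1360, of fewer tested, with dim probe sets left out. GPI was 0.98 ± 0.14 (SE) higher at number 3 than at number 2, the largest of the 10 differences there.

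Number 4 was above number 2 for 7 of 10 enzymes (background 23.6%), and HK2, ENO1 and LDHA did not pass. It was above number 3 for GPI, PFKP, ALDOC, TPI1 and PGK1 (5 of 10, background 18.0%). That last count was 8 with dim probe sets left out and 9 with the trend and robust fit. Probe sets called higher were then 2665, of fewer tested, and 4050, beside the 3866 that make the background of 18.0%. Of the 30 neighbouring steps in the enzymes' orders 8 passed. These steps mix contrasts, and a share over all probe sets was not computed for them. ALDOC passed between numbers 1 and 2 and between 3 and 4, PGK1 likewise, and GPI between 2 and 3 and between 3 and 4. PFKP and TPI1 passed between numbers 3 and 4. For HK2, ALDOA, PGAM1, ENO1 and LDHA (5 enzymes) no neighbouring numbers differed past the threshold. Without both arrays of number 4, the test of any difference called 3 of 10 enzymes, ALDOC, GPI and PGK1.

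Each enzyme followed the mean of the other 9 over the 8 arrays, with correlations from 0.764 (PFKP) to 0.973 (GPI). The 8 points share 4 numbers, so these are descriptions. Outside the lists, the genes most like the enzymes' mean were KCNAB2 (a potassium channel subunit, r = 0.994 over 8 arrays), PPP2R2B (a regulatory subunit of protein phosphatase 2A, 0.993), LGMN (legumain, a lysosomal protease, 0.991), PLOD1 (a collagen lysyl hydroxylase, 0.990) and LBH (0.990). LGMN ran from 8.31 to 11.05 over the arrays, and PPP2R2B from 3.06 to 4.01, which is dim.

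Isoenzymes of a step did not all follow the same course. Because probe sets differ in brightness, the difference between 2 isoenzymes on an array is read only for how it changes between arrays. ALDOA minus ALDOC was 4.71, 2.90, 2.90 and 1.99 in untreated arrays 1 to 4 and 4.94, 2.88, 2.73 and 2.03 in treated ones. Number 4 was thus 2.82 log2 units nearer to ALDOC than number 1, and numbers 2 and 3 lay between them. ENO1 minus ENO2, the form best known from neurons, was 5.02, 4.95, 5.11 and 3.49 untreated and 5.23, 4.89, 4.72 and 3.52 treated. It was low at number 4 alone. ENO2 was higher there than at number 1 by 2.26 ± 0.16 (SE, adjusted p = 9.7e-05, limma).

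The isoenzymes of lactate dehydrogenase parted. LDHA minus LDHB was -0.11, 0.42, 0.38 and 1.02 untreated and -0.05, 0.37, 0.35 and 0.92 treated. LDHB, which favours the turn of lactate into pyruvate, was lower at number 4 than at number 1, at -0.54 ± 0.13 (SE, adjusted p = 0.0124, limma), while LDHA was higher. LDHB read 12.26, 12.15, 12.18 and 11.66 untreated and 12.25, 12.17, 12.21 and 11.78 treated, so number 4 stood apart in both groups.

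Phosphofructokinase and hexokinase shifted less. PFKP minus PFKL, the liver type, was 2.34, 2.02, 1.97 and 1.58 untreated and 2.06, 1.98, 1.91 and 1.67 treated, and PFKL was 1.22 ± 0.15 (SE) higher at number 4 than at number 1. PFKP minus PFKM, the muscle type, differed by 0.42 between numbers 4 and 1 in both groups, but its arrays at number 2 were 4.18 and 3.59, a gap larger than that. HK2 minus HK1 changed from number 1 to number 4 by -0.62 in untreated and 0.45 in treated arrays, so no direction was seen. HK1, the constitutive hexokinase, was itself higher at number 4 by 1.16 ± 0.14 (SE). Untreated and treated means of the balances differed by less than their SDs, for instance LDHA minus LDHB at 0.43 ± 0.46 and 0.40 ± 0.40 (SD, n = 4 each). Those SDs hold the spread between numbers, and a treatment difference of the balances was not tested.

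**Figure D3:**
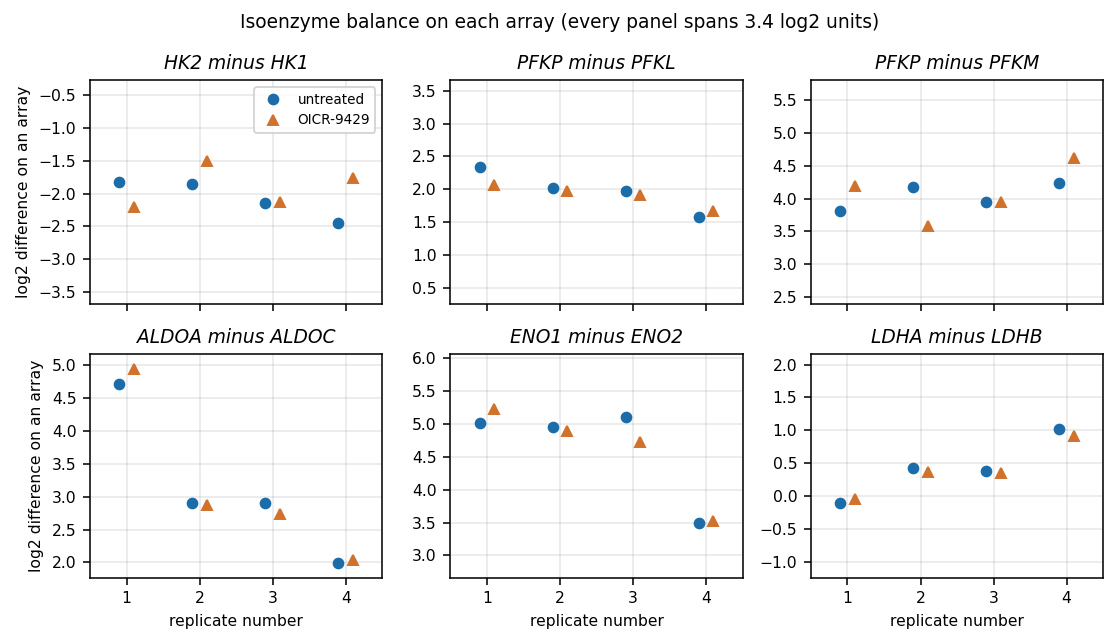
Log2 difference between isoenzymes of a step on each array (vertical axis, every panel 3.4 units high) by replicate number (horizontal axis), untreated as circles and OICR-9429 as triangles. ALDOA minus ALDOC is highest at number 1 and lowest at number 4, ENO1 minus ENO2 is low at number 4, and LDHA minus LDHB is highest there.

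The isoenzymes and remaining steps (19 genes measured) had 12 members higher and 2 lower at number 4 than at number 1, with 5 not past the threshold (limma). The background was 21.3% higher and 23.2% lower, and the list's median difference was 0.71. With probe sets below the median level left out, 12 of the genes were tested, 7 were higher and 2 lower. PKM, which makes pyruvate, was higher by 0.84 ± 0.14 (SE). BPGM, which diverts the PGK1 substrate, was lower, at -1.02 ± 0.14 (SE). GAPDH, the step before PGK1, had a difference of 0.26 ± 0.13 (SE) and did not pass (adjusted p = 0.141). It read 13.03, 12.97, 13.02 and 13.27 untreated and 12.97, 13.01, 12.90 and 13.26 treated, again close to the top of the scale. The other members called higher were HK3, HKDC1, PGAM2, PGAM4, ENO3, PKLR, LDHC and LDHD, with differences from 0.59 to 1.00. Of these HK3, HKDC1, LDHC and PKLR are dim, with means of 5.11, 4.39, 5.16 and 5.81 over the 8 arrays. PGAM2, with a mean of 6.39, lies at the level of the array medians. For HKDC1 the untreated array of number 4 is among those flagged further on. PGAM4 is a near copy of PGAM1, so the signals of these genes may be shared and both are uncertain. ADPGK, PFKM, GAPDHS and PGK2 had differences of -0.04, 0.23, 0.19 and 0.47 and did not pass.

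Of 19 measured genes for transport and pyruvate entry, 4 were higher and 6 lower at number 4 than at number 1 (limma), near the background of 21.3% and 23.2%. With quantile normalization 6 were higher and 4 lower. With the trend and robust fit 6 were higher and 8 lower, and with dim probe sets left out 6 and 8 of 16. The glucose transporters SLC2A1 and SLC2A3 were higher by 1.61 ± 0.14 and 2.36 ± 0.21 (SE). SLC16A7, a monocarboxylate carrier, was lower, at -2.14 ± 0.19 (SE). Subunits of pyruvate dehydrogenase, which were grouped after the values were seen, were lower in 4 of 5 cases, with DLAT at -1.44 ± 0.15 and DLD at -1.08 ± 0.15 (SE). That count was 2 of 5 with quantile normalization, and 3 of 5 without number 2 or without number 3. It was 5 of 5 with dim probe sets left out and with the trend and robust fit. PDK1, a kinase that switches the complex off, was higher by 1.44 ± 0.14 (SE), and MPC1, a subunit of the mitochondrial pyruvate carrier, was lower, at -1.01 ± 0.14. Related genes of the list moved less from number 1 to number 4. Their means were 9.02 and 9.075 for MPC2, 9.01 and 9.37 for PDK2, 7.335 and 7.675 for PDK3, and 3.635 and 3.70 for PDK4.

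Regulators of flux (16 measured) had 4 higher and 2 lower members, beside the background of 21.3% and 23.2%. The counts were 6 and 2 with quantile normalization and 4 and 4 with the trend and robust fit. PFKFB3, which makes the activator of phosphofructokinase, was higher by 1.99 ± 0.14 (SE) at number 4 than at number 1, and TIGAR, which degrades that activator, was lower, at -0.60 ± 0.13. EGLN1, an oxygen-sensing prolyl hydroxylase, was higher by 0.79 ± 0.14 (SE) there and by 1.26 ± 0.14 at number 2 over number 1. HIF1A itself had a difference of -0.34 ± 0.16 (SE) between numbers 4 and 1 and did not pass (adjusted p = 0.118, limma). Of the same list, ARNT had means of 8.875 at number 1 and 9.885 at number 4, and MYC had 10.465 and 10.075. In the branches and gluconeogenesis (23 measured), 9 were higher and 5 lower, against that background, and with quantile normalization 12 and 4. With dim probe sets left out 6 were higher and 6 lower of 18. PGM1 and GYS1, which link glucose phosphate to glycogen, were higher by 1.37 and 1.25, and TALDO1 of the pentose phosphate path was lower at numbers 2 and 4, at -1.50 and -0.42 against number 1.

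**Figure D4:**
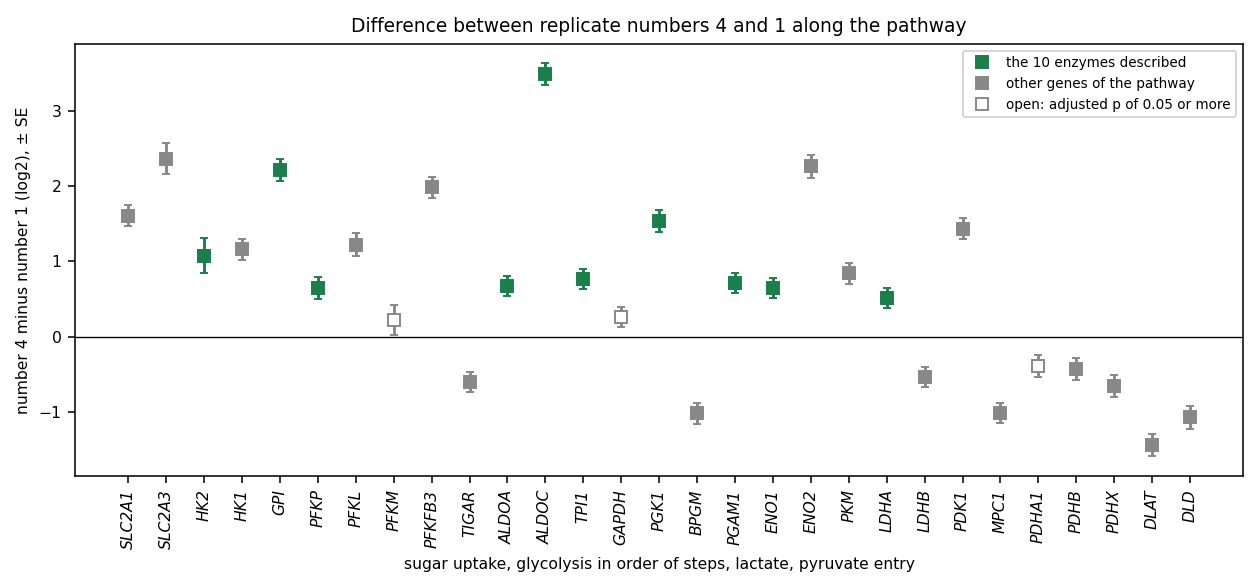
Difference between replicate numbers 4 and 1 (log2 ± SE, vertical axis) for genes placed in order of the pathway (horizontal axis), the 10 enzymes in green, others in grey, and open symbols for genes with an adjusted p of 0.05 or more in limma. The green symbols lie between 0.52 and 3.49, while LDHB, MPC1 and the pyruvate dehydrogenase subunits lie below 0.

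Of the other pathway lists (19, 19, 16 and 23 genes), 0 genes passed the threshold for OICR-9429 with limma, with and without the replicate block. At an unadjusted p under 0.05 there were 0 in each list without the block and 1, 0, 1 and 2 with it. Without the block the members with the smallest p were GAPDHS (-0.38) and ADPGK (0.12) of the isoenzymes, PDK3 (0.18) and DLD (0.17) of pyruvate entry, TIGAR (0.34) and EGLN3 (0.17) of the regulators, and PC (-0.29) and FBP2 (-0.27) of gluconeogenesis, all as log2 differences. With the replicate block the genes with an unadjusted p under 0.05 were TIGAR, RPIA (0.25), GAPDHS and PCK1 (-0.23), each with an adjusted p of 0.841 (limma). TIGAR had a 95% interval of 0.12 to 0.55.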

How the data were processed

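The authors deposited a table of log2 expression for 21448 probe sets on each of 8 Affymetrix arrays. RMA and Transcriptome Analysis Console made them, per the submitters' processing notes, and the labelling kit was the GeneChip WT PLUS, per the labels' protocols. Tool versions and genome build: not given in the sources used here. Scanner files were not used here, so background and scan batch were not examined, and precision is limited by how few arrays there are.

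Gene symbols came from the platform annotation (17709 with 1 symbol, 3739 unnamed here), all of them matched by Entrez ID to RefSeq names (GRCh38.p14). A gene with several probe sets took the one with the highest mean. Some genes of the pathway lists have no named probe set here and were not analysed.

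Groups were compared with limma 3.58.1 (R 4.3.3, lmFit and eBayes, two-sided, Benjamini-Hochberg over all probe sets, threshold 0.05). The treatment fit had no covariate. Numbers were compared in a fit with number and treatment, by an F-test and 6 pairwise contrasts, each adjusted over all probe sets. Both fits were run on simulated data with known changes, where for the number fit only number 4 was changed. That was a check of the code, and no power of the treatment fit is taken from it. Deviations from the group means of same-numbered arrays (numbers from the sample titles) correlated at 0.696, 0.748, 0.566 and 0.865, above the limit of 0.1, so the numbers pair the samples. Alternatives were the replicate block, left-out arrays and numbers, median scaling, quantile normalization, a filter at the median level, and trend with robust variance.

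The enzymes, lists and tests were chosen with earlier results of these data known. Genes named beyond the 10 enzymes and their isoenzymes were, per list, the 3 with the smallest p between numbers and the 2 with the smallest p for treatment, and the 5 genes most correlated with the enzymes' mean. MPC1, MPC2, PDK1, PDK2, PDK4, DLAT, HIF1A, ARNT, MYC, RPIA and PCK1 were added after their values were seen. So were the marker genes given with values, PDK3's means by number and TALDO1's second contrast.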

Additional observations from a re-analysis of the deposited data

Results flagged for a closer look

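The 10 enzymes, the measured isoenzymes, the genes named for the smallest p of each list and the isoenzyme balances were examined in both groups. Other genes named in the text were not. Of these 98 groups of 4 arrays, 9 held an array far from the other 3, where chance gives about 1 in 20. Some of the genes were picked for differing between numbers, so that rate is only a rough reference. Of the 9, 7 were arrays of number 4. Its untreated array read 5.21 for HKDC1 (the others 4.16 to 4.33), 5.65 for SLC16A7 (7.80 to 8.16), 8.29 for DLD (9.51 to 9.58) and 3.49 for ENO1 minus ENO2 (4.95 to 5.11). Its treated array read 7.67 for BPGM (8.71 to 8.79), 11.78 for LDHB (12.17 to 12.25) and 6.09 for SLC16A7 (7.86 to 8.06). The others were ADPGK at 8.39 in untreated replicate 1 (8.18 to 8.19) and GAPDHS at 4.30 in OICR-9429 replicate 3 (4.72 to 4.8). None of the 9 was one of the 10 enzymes on its own.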

How the results depend on the processing

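The count of 0 for OICR-9429, over the 10 enzymes and over all probe sets, held under every alternative run, the replicate block included, and the 10 of 10 enzymes higher at number 4 than at number 1 held under all settings that keep both numbers, with adjusted p up to 0.0315 (limma). The block changed no call. The treatment differences, none past the threshold, changed sign in 40 of 170 alternatives. Over left-out arrays and numbers they ran from -0.15 to 0.38 for HK2, -0.52 to 0.35 for GPI, -0.22 to 0.16 for PFKP, -0.22 to 0.068 for ALDOA, -0.69 to 0.60 for ALDOC, -0.12 to 0.21 for TPI1, -0.34 to 0.20 for PGK1, -0.16 to 0.15 for PGAM1, -0.11 to 0.13 for ENO1 and -0.10 to 0.11 for LDHA. Leaving out 1 array, in a fit without the block, keeps its number in 1 group only, so differences between numbers enter these values. With both arrays of a number left out, and the block in the fit, GPI ran from -0.11 to -0.01 and ALDOC from -0.11 to -0.01. HK2 ran from -0.06 to 0.27 in those fits. Median scaling gave 0.0125 for PFKP and quantile normalization -0.0061 for PGAM1. Over left-out numbers the test of any difference called 2979 to 10394 probe sets and 3 to 10 enzymes, the lowest of each without number 4, and number 2 against number 1 called 1 to 2 enzymes, the 1 without number 3. The median filter raised the enzymes called to 5 (2 against 1), 5 (3 against 2) and 8 (4 against 3), and trend with robust variance to 5 (2 against 1), 8 (3 against 1), 6 (3 against 2) and 9 (4 against 3). The filter tests fewer probe sets, and for the other setting the cause was not tested. Counts over all probe sets also changed under both settings, as given with these contrasts above. No enzyme had several probe sets, so averaging them was not run. Signal over background is not known, and ENO1, LDHA and GAPDH lie near the top of the scale.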
